A study of Mus musculus with 18 samples.

Results

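The liver takes bile acids and organic anions up from blood across the basolateral membrane of hepatocytes and secretes them into bile across the canalicular membrane. The 10 transporters described here cover both steps and were chosen by their known function, with earlier results of these data known. Their genes are Slc10a1, Slco1a1, Slco1a4, Slco1b2, Slco2b1, Abcb11, Abcb4, Abcc2, Abcc3 and Abcc4. All 10 occurred once each among the 19057 rows of the expression table. They were measured by RNA sequencing in the livers of 18 male ICR mice, 3 in each of 6 groups, all sampled at 10 weeks of age.

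The Con mice received a regular diet and saline. The STZ mice received a single injection of streptozotocin, a toxin that destroys the insulin-producing beta cells of the pancreas and is used to model type 1 diabetes. The A10-FMT and Con-FMT mice received the same injection and then, by mouth, gut microbiota pooled from the small intestines of donor mice. The A10-FMT donors had been dosed with alginate oligosaccharide (AOS) at 10 mg/kg and the Con-FMT donors with water, so that each transplant was 1 pool. AOS (10 mg/kg) and STZ+AOS (both agents) are named in the sample labels only. Values are RPKM, in which reads are divided by the length of the transcript and by all mapped reads of a library, and changes are given on the scale of log2(RPKM + 1).

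Bile acids are carried into hepatocytes mainly by NTCP (Slc10a1), together with sodium, while the OATP carriers (Slco genes) take up bile acids, bilirubin conjugates, steroid conjugates and drugs without sodium. BSEP (Abcb11) pumps bile salts into bile, MDR2 (Abcb4) moves phosphatidylcholine into bile, and MRP2 (Abcc2) exports conjugated bilirubin and other conjugates. MRP3 (Abcc3) and MRP4 (Abcc4) sit in the basolateral membrane and return conjugates and bile acids to blood. Transcription of these genes is known to respond to nuclear receptors such as FXR (Nr1h4), PXR (Nr1i2) and CAR (Nr1i3) and to the oxidative stress factor NRF2 (Nfe2l2). In mouse liver Slco1a1 is known as a male-predominant gene and Slco1a4 as a female-predominant gene.

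In the GRCm38 annotation (GENCODE M21) Slco1b2, Slco1a4 and Slco1a1 are neighbours in the Slco cluster of chromosome 6. Slco1b2 spans chr6:141629518-141686646 on the plus strand, Slco1a4 chr6:141805440-141856199 and Slco1a1 chr6:141907282-141946962, both on the minus strand. The other members lie apart from each other. Slc10a1 is at chr12:80953183-80968705, Slco2b1 at chr7:99657804-99711340, Abcb11 at chr2:69238282-69342616 and Abcb4 at chr5:8893717-8959231. Abcc2 is at chr19:43782192-43840740, Abcc3 at chr11:94343295-94392997 and Abcc4 at chr14:118482692-118706219. Each RPKM covers the exons of the whole gene.

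The 250 bases before the transcription start are shown for the 3 chromosome 6 neighbours, because these genes differed from each other under STZ, and for Abcb11 and Abcc4 as a canalicular and a basolateral pump. The sequences are those of RefSeq for GRCm38.p6, where 9 of the 10 members had an entry, with 13 windows among them. Capitals mark matches, on either strand, to AGGTCA (the hexamer of nuclear receptors), TGACNNNGC (the antioxidant response core bound by NRF2), GTTAAT (a core recognised by HNF1 factors) and TATAAA (the TATA box).
Slco1a1: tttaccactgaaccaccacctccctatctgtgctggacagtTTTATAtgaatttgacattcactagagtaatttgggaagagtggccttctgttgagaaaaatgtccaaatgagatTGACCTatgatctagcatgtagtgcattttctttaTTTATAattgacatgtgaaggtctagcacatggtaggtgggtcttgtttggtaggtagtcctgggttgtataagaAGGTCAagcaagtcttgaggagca
Slco1a4: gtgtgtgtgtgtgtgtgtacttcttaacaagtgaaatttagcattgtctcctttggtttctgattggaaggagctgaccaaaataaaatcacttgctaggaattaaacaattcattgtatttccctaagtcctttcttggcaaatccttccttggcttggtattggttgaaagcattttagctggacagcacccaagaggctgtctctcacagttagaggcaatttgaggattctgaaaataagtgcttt
Slco1b2: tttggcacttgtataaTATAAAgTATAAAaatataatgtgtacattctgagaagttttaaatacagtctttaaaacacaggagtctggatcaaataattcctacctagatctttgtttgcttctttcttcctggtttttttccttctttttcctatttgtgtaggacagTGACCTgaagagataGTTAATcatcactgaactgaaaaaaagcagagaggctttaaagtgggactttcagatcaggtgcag
Abcb11: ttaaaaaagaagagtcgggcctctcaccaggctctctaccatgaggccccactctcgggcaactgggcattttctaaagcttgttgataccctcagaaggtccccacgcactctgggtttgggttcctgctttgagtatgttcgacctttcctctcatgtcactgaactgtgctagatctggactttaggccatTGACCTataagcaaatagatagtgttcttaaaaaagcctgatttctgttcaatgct
Abcc4: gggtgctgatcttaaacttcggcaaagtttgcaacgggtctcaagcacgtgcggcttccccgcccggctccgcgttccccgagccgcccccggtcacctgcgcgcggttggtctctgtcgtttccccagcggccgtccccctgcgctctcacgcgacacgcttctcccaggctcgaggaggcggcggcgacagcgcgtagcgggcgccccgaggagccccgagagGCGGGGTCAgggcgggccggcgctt
These windows lie at chr6:141946963-141947212 (Slco1a1, minus strand), chr6:141856221-141856470 (Slco1a4, minus strand), chr6:141629268-141629517 (Slco1b2, plus strand), chr2:69342617-69342866 (Abcb11, minus strand) and chr14:118706220-118706469 (Abcc4, minus strand).

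Slco1a1 held AGGTCA from base -24 to -19 and, on the other strand, from -134 to -129, counted back from the start at -1, and TATAAA on the other strand at 2 places. Slco1a4 held none of the 4 motifs. Slco1b2 held AGGTCA on the other strand (-81 to -76), GTTAAT (-66 to -61) and TATAAA at 2 places. Abcb11 held AGGTCA on the other strand (-56 to -51), and the furthest upstream start of Abcc4 held TGACNNNGC on the other strand (-25 to -17). Abcc2, whose window is not shown, held TGACNNNGC (-98 to -90) and AGGTCA (-49 to -44). No match overlapped another. Over all 32851 windows of 250 bases in the RefSeq table, AGGTCA occurred in 14%, TGACNNNGC in 10.2%, GTTAAT in 6.43% and TATAAA in 12.4%. Such matches describe the letters only and are not evidence of binding.

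STZ mouse 3 and Con-FMT mouse 1 stood apart from their groups. On the first principal component of all tested genes, which held 57% of the variance, STZ mice 1 and 2 were at 45.94 and 46.41 and STZ mouse 3 was at 0.18, among the transplanted mice (-13.06 to 18.28). Con-FMT mouse 1 was at 18.28, against -13.06 and -2.18 for the other Con-FMT mice, and had the highest erythroid marker sum of all libraries (9168 RPKM, against 280 to 3336 RPKM). The part of the erythroid RNA in the Con-FMT values was not tested. Counts of called members that involve the STZ or Con-FMT group are given with and without the mouse in question. The 10 hepatocyte markers summed to 38904 to 69893 RPKM per library, and albumin (Alb) was 30344 RPKM in Con and 30089 RPKM in STZ on average. Summed markers of exocrine pancreas were 81.9 RPKM in STZ+AOS mouse 3 and at most 2.57 RPKM in every other library, and summed kidney markers were at most 5.25 RPKM, in Con-FMT mouse 1. Libraries had 9955 to 10409 genes at 1 RPKM or more. Whole tissue was sequenced, so that less RNA per cell and fewer cells of a type cannot be told apart.

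**Figure D1:**
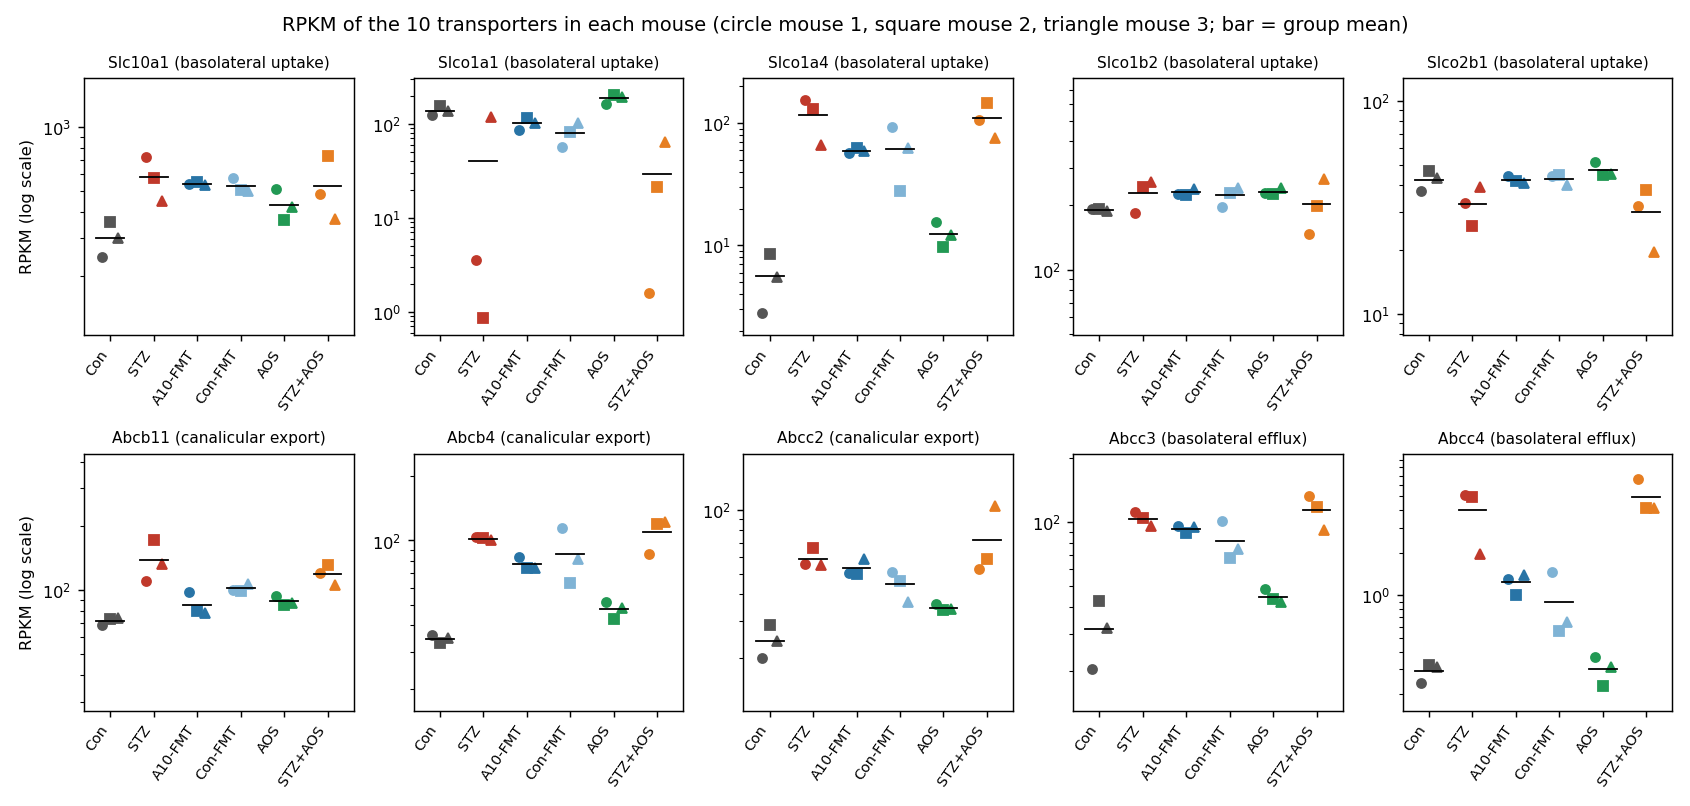
RPKM of each of the 10 transporters (log axis) in each of the 18 mice, by group, with a bar at the group mean; circles, squares and triangles are mice 1, 2 and 3. Slco1a1 is at 0.85 and 3.53 RPKM in STZ mice 2 and 1 and at 117 RPKM in STZ mouse 3, whereas Abcb4 lies between 100 and 104 RPKM in all 3 STZ mice and between 33.0 and 36.0 RPKM in the Con mice.

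The first comparison asked how the transporters differed between diabetic and control livers. Nearly the whole set shifted with STZ. Slco1a4, all 3 canalicular exporters, both basolateral efflux pumps and the sodium-dependent bile acid carrier Slc10a1 were higher, while Slco1a1 and, by less, Slco2b1 were lower. In limma's test 9 of 10 members passed an adjusted p under 0.05 in STZ against Con, 7 higher and 2 lower. Over all 10602 genes tested 38.5% passed, 33% higher and 5.52% lower, so that a change as such was common in these livers. The split depended on scaling, and with median-ratio scaling 27.1% of genes passed, 14% higher and 13.1% lower, while 9 members passed again, 7 higher and 2 lower. The median change was 1.09 over the 10 members and 0.21 over all genes. The mice of the groups did not overlap for 8 members, against 47.7% of all genes. Without STZ mouse 3, 9 members passed again, against 47.4% of all genes. Abcc4 entered the fit only through groups in which it was higher, since no Con mouse reached 1 RPKM, and leaving it out 8 of 9 members passed, 6 higher and 2 lower, also without STZ mouse 3.

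Among the uptake carriers, Slc10a1 (NTCP) was the most abundant member per transcript length in Con. Its RPKM in Con mice 1 to 3 were 245, 359 and 303, and in STZ mice 720, 575 and 450. All STZ mice were above all Con mice, and Slc10a1 rose by 0.93 on the log2 scale (SE 0.181, adjusted p = 0.00322). The interval of this change was 0.54 to 1.33, and the change was 0.72 above the median of all genes. The change was 1.11 without STZ mouse 3 (adjusted p = 0.000521).

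Slco1a1 (OATP1A1), a carrier of steroid and bile acid conjugates, had 125, 156 and 135 RPKM in the Con mice. In the STZ mice it had 3.53, 0.85 and 117 RPKM. The ratio of the highest to the lowest STZ mouse was 138, against 1.24 in Con, and STZ mouse 3 was just below the Con mice. Slco1a1 fell by 3.80 on the log2 scale (SE 1.1, adjusted p = 0.0197). Without STZ mouse 3 it fell by 5.59 (SE 0.331, adjusted p = 3.84e-06), and without STZ mouse 2 the change was -2.59 (adjusted p = 0.0761). The call was also lost without STZ mouse 1 (adjusted p = 0.0687), Con mouse 1 (0.0527) or Con mouse 3 (0.0517), and with only Con and STZ fitted (0.0728).

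Slco1a4 (OATP1A4), its neighbour on chromosome 6, went the other way. It had 2.78, 8.43 and 5.55 RPKM in the Con mice and 154, 131 and 66.5 RPKM in the STZ mice. The mean was 21 times that of Con, with no overlap. Slco1a4 rose by 4.18 on the log2 scale (SE 0.438, adjusted p = 0.000292). This became 4.54 without STZ mouse 3 (adjusted p = 5.15e-05). STZ mouse 3, in which Slco1a1 was close to Con, had the lowest Slco1a4 of its group.

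The third neighbour, Slco1b2 (OATP1B2), the rodent counterpart of the human OATP1B carriers, had 193, 192 and 188 RPKM in Con and 184, 244 and 257 RPKM in STZ. The groups overlapped, and its change of 0.24 (interval -0.052 to 0.54, adjusted p = 0.172) was about that of the median gene. Without STZ mouse 1, its lowest, the change was 0.39 and passed (adjusted p = 0.0275). Under median-ratio scaling its value was -0.028. Slco2b1 (OATP2B1), which takes up steroid sulfates, had 37.7, 47.0 and 43.2 RPKM in Con and 33.2, 25.9 and 39.4 RPKM in STZ. It fell by 0.38 (SE 0.138, adjusted p = 0.0471) with overlapping groups. This call was lost without Con mouse 2 (adjusted p = 0.141), Con mouse 3 (0.114), STZ mouse 1 (0.0794) or STZ mouse 2 (0.178), and held without STZ mouse 3 (-0.52, adjusted p = 0.00674). It was lost, too, with all 6 groups fitted (0.124), with only Con and STZ fitted (0.128) and with no filter on low values (0.0679).

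**Figure D2:**
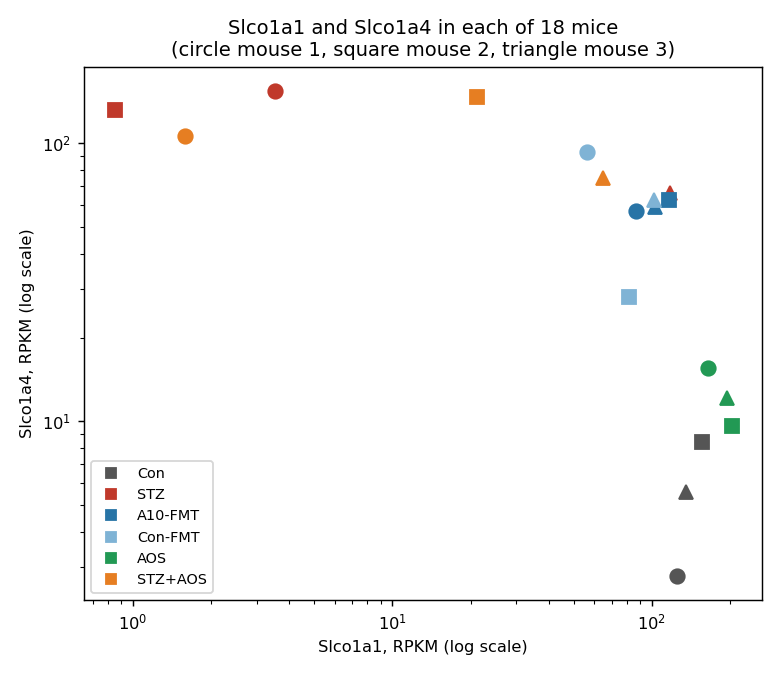
RPKM of Slco1a1 (x, log axis) against Slco1a4 (y, log axis) in each of the 18 mice, coloured by group; circles, squares and triangles are mice 1, 2 and 3. Con and AOS mice are at the lower right with Slco1a4 at 2.78 to 15.6 RPKM, the transplanted mice and STZ mouse 3 above them, and STZ mice 1 and 2 and STZ+AOS mouse 1 at the upper left with Slco1a1 under 4 RPKM.

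The canalicular exporters rose together. Abcb11 (BSEP), the bile salt pump, had 68.8, 73.0 and 73.8 RPKM in Con and 111, 172 and 133 RPKM in STZ, and rose by 0.91 (SE 0.147, adjusted p = 0.0014). Abcb4 (MDR2), the phospholipid floppase, had 36.0, 33.0 and 34.7 RPKM in Con and 104, 102 and 100 RPKM in STZ. Its 3 STZ mice differed little from each other, STZ mouse 3 included, and it rose by 1.53 (SE 0.167, adjusted p = 0.000326). Abcc2 (MRP2), the conjugate pump, had 20.0, 28.8 and 24.0 RPKM in Con and 55.4, 65.9 and 55.1 RPKM in STZ, and rose by 1.25 (SE 0.152, adjusted p = 0.00047). None of these groups overlapped, and without STZ mouse 3 the changes were 0.93, 1.55 and 1.30.

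The basolateral efflux pumps rose as well. Abcc3 (MRP3) had 20.4, 42.6 and 31.9 RPKM in Con and 111, 104 and 95.7 RPKM in STZ, a change of 1.74 (SE 0.221, adjusted p = 0.000518), and of 1.79 without STZ mouse 3 (adjusted p = 0.000363). Abcc4 (MRP4) was the least abundant member, at 0.24, 0.32 and 0.31 RPKM in Con, which the steps between low values put at about 20 to 26 reads per library. In STZ it had 5.09, 4.98 and 1.96 RPKM, 13.8 times the Con mean. Its change of 1.88 (SE 0.255, adjusted p = 0.000646) is understated by the added 1, and with 0.1 added it was 3.29 (adjusted p = 0.000432). The change was 2.23 without STZ mouse 3 (adjusted p = 1.83e-05). Because the filter let Abcc4 in through the groups in which it was higher, its test was also run over all 17912 genes with no filter, where the adjusted p was 0.00182.

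The second pair of groups that differed by STZ, STZ+AOS against AOS, shares no mouse with Con and STZ. In this comparison 8 of 10 members passed, 6 higher and 2 lower, against 37.9% of 10822 genes (31.8% higher and 6.11% lower). With median-ratio scaling 7 members passed, 5 higher and 2 lower, against 12.2% of genes higher and 12.2% lower. The member median was 0.69 and that of all genes 0.21. Without STZ+AOS mouse 3, which carried the pancreas markers, 9 members passed, 6 higher and 3 lower, against 32.1% of all genes. Leaving out Abcc4, which no AOS mouse had at 1 RPKM, 7 of 9 members passed, 5 higher and 2 lower, and 8 of 9 without STZ+AOS mouse 3.

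The directions of the called members were those of STZ against Con. Slco1a1 had 164, 203 and 194 RPKM in AOS and 1.58, 21.2 and 64.7 RPKM in STZ+AOS, and fell by 3.59 (SE 1.17, adjusted p = 0.0257). As in the STZ group, mouse 3 was the highest of its group, here below all AOS mice. The call was lost without STZ+AOS mouse 1 (-2.30, adjusted p = 0.124) or any AOS mouse (adjusted p = 0.0515 to 0.0682). Slco1a4 had 15.6, 9.63 and 12.1 RPKM in AOS and 106, 147 and 75.2 RPKM in STZ+AOS, and rose by 3.01 (adjusted p = 0.000215). Slco2b1 had 51.7, 44.9 and 45.1 RPKM in AOS and 31.9, 38.3 and 19.5 RPKM in STZ+AOS, with no overlap, and fell by 0.69 (adjusted p = 0.0108). Without STZ+AOS mouse 3, its lowest mouse, the change was -0.42 (adjusted p = 0.0417), and with only AOS and STZ+AOS fitted the call was lost (adjusted p = 0.0674).

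Abcb4 rose by 1.18 (adjusted p = 0.000304), Abcc2 by 0.96 (0.00244) and Abcc3 by 1.32 (0.000483). Abcc4 had 0.37, 0.23 and 0.31 RPKM in AOS and 6.61, 4.14 and 4.13 RPKM in STZ+AOS, and rose by 2.17 (adjusted p = 4.96e-05, and 0.000185 with no filter on low values). These efflux and export genes again did not overlap between groups. Abcb11 had 93.6, 84.9 and 87.1 RPKM in AOS and 120, 131 and 105 RPKM in STZ+AOS, and rose by 0.41 (adjusted p = 0.0276). Under median-ratio scaling, quantile normalization and median centring this call was lost (0.17, 0.26 and 0.16, with adjusted p = 0.373, 0.194 and 0.402), and likewise without AOS mouse 2 or 3 or STZ+AOS mouse 1 or 2 (adjusted p = 0.0606 to 0.0874). Slc10a1 had 511, 365 and 422 RPKM in AOS and 484, 730 and 369 RPKM in STZ+AOS, which overlapped, and its change was 0.24 (adjusted p = 0.416). Slco1b2 had a change of -0.23 (adjusted p = 0.299), and -0.44 without STZ+AOS mouse 3 (adjusted p = 0.0374).

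**Figure D3:**
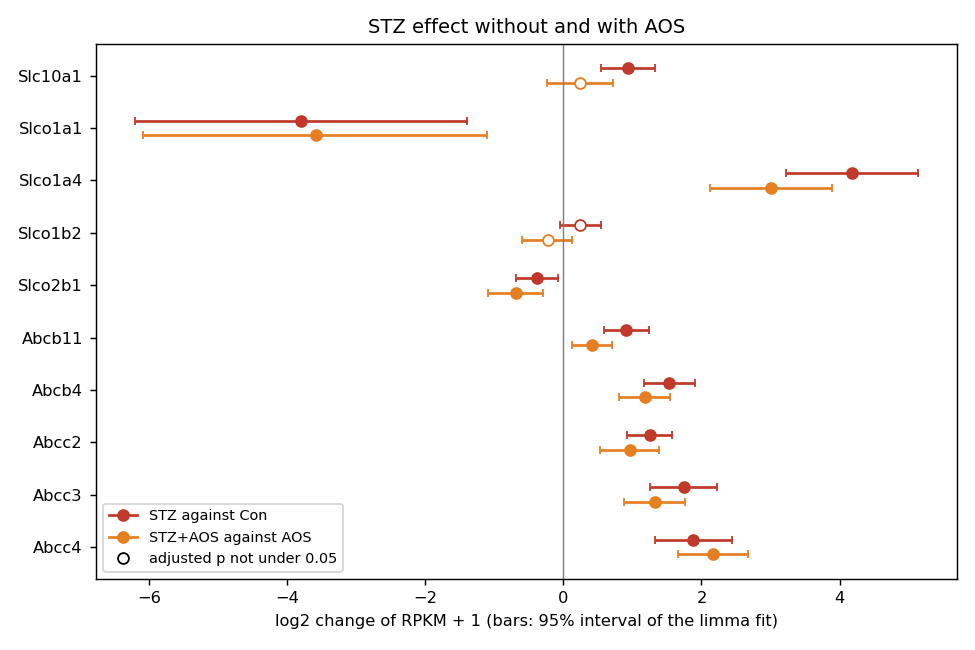
log2 change of RPKM + 1 of the 10 transporters in STZ against Con and in STZ+AOS against AOS, with 3 mice in each group and bars for the 95% interval of the limma fit; open points did not pass an adjusted p under 0.05. Slco1a4 (4.18 and 3.01) and Slco1a1 (-3.80 and -3.59) are furthest from 0 on either side, and the Slco1a1 bars are the widest.

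Whether the effect of STZ differed with AOS was tested as an interaction. No member and none of the 10822 genes (0%) passed an adjusted p under 0.05 in limma, and 2 members had an unadjusted p under 0.05, against 5.4% of all genes. These were Abcb11 (-0.50, interval -0.91 to -0.085, adjusted p = 0.856) and Slc10a1 (-0.69, interval -1.37 to -0.016, adjusted p = 0.856). The estimates of the 10 members ran from -1.17 for Slco1a4 to 0.28 for Abcc4. No member passed without STZ mouse 3 either, and Slco1a4 had -1.53 (adjusted p = 0.436) and Abcc4 -0.058 (adjusted p = 0.959). For Slco1a1 the interval was -3.32 to 3.74, too wide to read.

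STZ+AOS was next set beside STZ, to see whether AOS given to diabetic mice moved the transporters. No member passed in limma, nor did any of the 10822 genes (0%), and 0 members had an unadjusted p under 0.05, against 6.07% of genes. Every member overlapped between the groups, while 5.13% of all genes did not. Changes ran from -0.20 for Abcb11 (interval -0.49 to 0.09) to 0.64 for Slco1a1 (interval -1.85 to 3.14). Nor did any member pass without STZ mouse 3, with 2.42 for Slco1a1 (adjusted p = 0.469) and -0.22 for Abcb11 (adjusted p = 0.689).

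AOS alone against Con gave 0 called members and 1 called gene of 10822 (0.00924%). Even so, 7 of 10 members were higher in every AOS mouse than in every Con mouse, against 19.1% of all genes, and 6 members had an unadjusted p under 0.05, against 7.22%. The member median was 0.44 and that of all genes 0.064. The lowest adjusted p of a member was 0.627, so these are values that did not pass the test.

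The 7 members were Slc10a1, Slco1a1, Slco1a4, Slco1b2, Abcb11, Abcb4 and Abcc2. Abcb4 had 51.4, 42.7 and 48.4 RPKM in AOS against 33.0 to 36.0 RPKM in Con, a value of 0.44 (interval 0.082 to 0.81). Abcc2 had 35.9, 33.7 and 34.3 RPKM against 20.0 to 28.8 RPKM, a value of 0.51 (interval 0.082 to 0.94). Slco1a4 was at 9.63 to 15.6 RPKM against 2.78 to 8.43 RPKM, with 1.10 (interval 0.22 to 1.98). Slco1a1 was at 164 to 203 RPKM, the highest of the 6 groups, with 0.43 (interval -2.07 to 2.92). Abcc4 stayed between 0.23 and 0.37 RPKM, with 0.014 (interval -0.50 to 0.53).

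The transplant comparisons asked whether donor microbiota moved the transporters of STZ mice. With all mice no member passed in either comparison in limma. A10-FMT against STZ called 24 of 10602 genes (0.226%) and Con-FMT against STZ called 1 (0.00943%). At an unadjusted p under 0.05 there were 5 members in A10-FMT against STZ, against 20.9% of all genes, and 6 in Con-FMT against STZ, against 20.1%. The 2 comparisons share the STZ mice, and so does STZ against Con.

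These counts turned on STZ mouse 3. Without it 4 members passed in A10-FMT against STZ, against 12.7% of 10580 genes, and 3 in Con-FMT against STZ, against 15.5%. The 2 remaining STZ mice then stand for the group. Leaving out Con-FMT mouse 1 instead, 0 members passed in Con-FMT against STZ, against 0.161% of all genes.

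Slco1a1 had 86.9, 116 and 103 RPKM in A10-FMT and 56.2, 82.0 and 102 RPKM in Con-FMT. All 6 transplanted mice were far above STZ mice 1 and 2 and all were below STZ mouse 3 (117 RPKM). The changes with all mice were 3.36 (interval 0.95 to 5.77, adjusted p = 0.137) in A10-FMT and 2.98 (interval 0.57 to 5.39, adjusted p = 0.173) in Con-FMT. Without STZ mouse 3 they were 5.14 (SE 0.331, adjusted p = 1.3e-05) and 4.76 (SE 0.331, adjusted p = 2.58e-05). Slco1a1 thus was higher than in 2 of 3 STZ mice in every transplanted mouse and lower than in the other one.

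Abcc4 had 1.31, 1.00 and 1.40 RPKM in A10-FMT and 1.47, 0.56 and 0.65 RPKM in Con-FMT, below all 3 STZ mice (1.96 to 5.09 RPKM) and above all Con mice. Its changes against STZ were -1.09 (adjusted p = 0.0715) and -1.36 (adjusted p = 0.0645), and the latter passed under median-ratio scaling (-1.30, adjusted p = 0.0412). Without STZ mouse 3 they were -1.44 (adjusted p = 0.00127) and -1.70 (adjusted p = 0.000449).

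Abcb11, the bile salt pump, had 97.6, 79.9 and 77.8 RPKM in A10-FMT and 99.8, 99.3 and 107 RPKM in Con-FMT, again below every STZ mouse (111 to 172 RPKM). In A10-FMT the change was -0.68 (interval -1.0 to -0.36, adjusted p = 0.0637). It was -0.68 with all 6 groups fitted (adjusted p = 0.0412), -0.70 without STZ mouse 3 (adjusted p = 0.0236) and -0.83 without STZ mouse 1 (adjusted p = 0.0277). For Con-FMT it was -0.41 (adjusted p = 0.161), and -0.43 without STZ mouse 3 (adjusted p = 0.103). Slco2b1 was at 41.1 to 44.4 RPKM in A10-FMT and 40.0 to 44.6 RPKM in Con-FMT, within the range of Con (37.7 to 47.0 RPKM) and above all STZ mice. Its changes were 0.38 (adjusted p = 0.16) and 0.40 (adjusted p = 0.151), and 0.52 (0.0244) and 0.54 (0.0193) without STZ mouse 3.

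Slco1a4 was at 57.2 to 62.4 RPKM in A10-FMT, below all STZ mice (66.5 to 154 RPKM), with -0.88 (adjusted p = 0.276), and at 28.0 to 92.6 RPKM in Con-FMT, with -1.0 (adjusted p = 0.232). Neither passed without STZ mouse 3 (adjusted p = 0.0841 and 0.059). Slc10a1 (-0.074 and -0.12), Slco1b2 (0.027 and -0.022), Abcc2 (-0.15 and -0.40), Abcc3 (-0.15 and -0.37) and Abcb4 (-0.40 and -0.28) did not pass with or without that mouse. Of these, Abcb4 in A10-FMT (unadjusted p = 0.0368, adjusted p = 0.212) and Abcc2 in Con-FMT (adjusted p = 0.178) lay below every STZ mouse. Counting all members, 5 of 10 did not overlap between A10-FMT and STZ, against 21.5% of all genes. Between Con-FMT and STZ 4 of 10 did not overlap, against 17.7%.

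**Figure D4:**
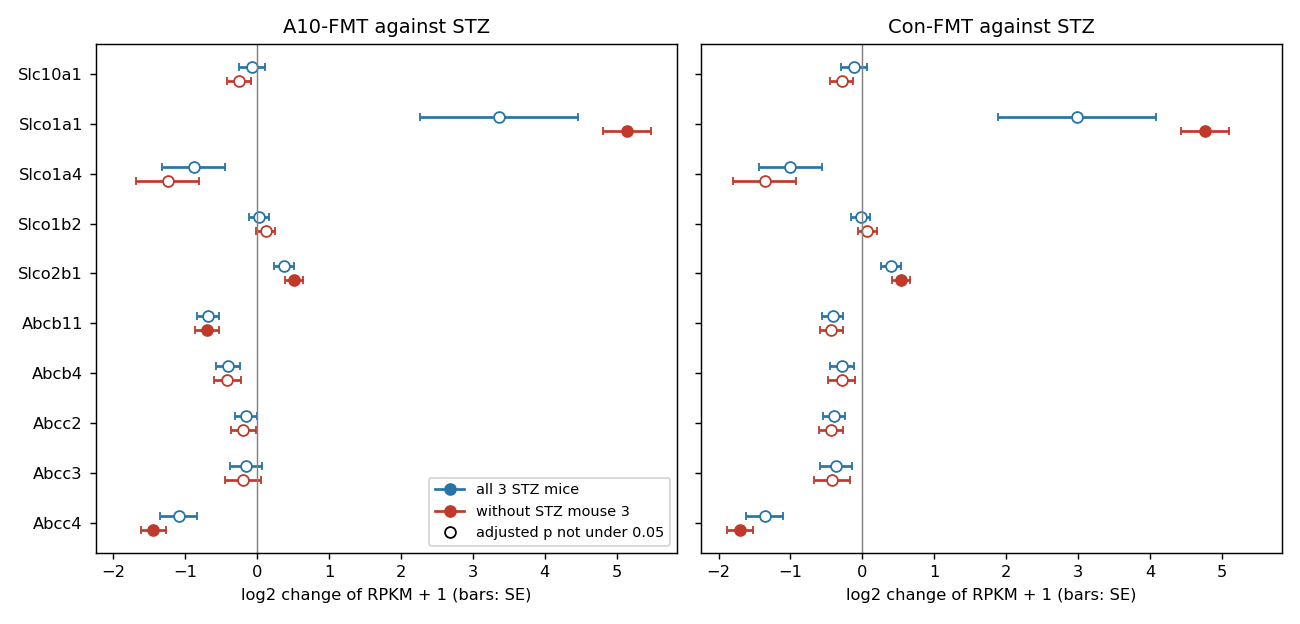
log2 change of RPKM + 1 of the 10 transporters in A10-FMT against STZ (left) and Con-FMT against STZ (right), with all 3 STZ mice and without STZ mouse 3; bars are the SE and open points did not pass an adjusted p under 0.05. Filled points occur only without STZ mouse 3, for Slco1a1, Slco2b1 and Abcc4 on both sides and for Abcb11 in A10-FMT.

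Against Con, the transplanted mice still carried higher levels of most exporters. In A10-FMT against Con 5 members passed (18.4% of all genes) and in Con-FMT against Con 6 did (19.4%), all higher. Of all genes 15.9% and 17.5% were higher and 2.47% and 1.89% lower, and with median-ratio scaling 6.27% and 4.9% were higher and 4.62% and 3.27% lower. Without Con-FMT mouse 1 the latter count was 4, against 5.71% of all genes, as Slc10a1 and Abcb11 (adjusted p = 0.0601 and 0.0986) no longer passed. Both comparisons share the Con mice with each other and with STZ against Con. Slc10a1 rose by 0.86 and 0.81 (adjusted p = 0.0118 and 0.0141), Slco1a4 by 3.30 and 3.18 (0.00159 and 0.00221), Abcb4 by 1.14 and 1.26 (0.00246 and 0.00184), Abcc2 by 1.10 and 0.85 (0.00182 and 0.00689), and Abcc3 by 1.59 and 1.37 (0.0019 and 0.00435), in A10-FMT and Con-FMT in turn. Abcb11 rose by 0.50 in Con-FMT (adjusted p = 0.0381) and had 0.23 in A10-FMT (adjusted p = 0.277). This Abcb11 call was lost under median-ratio scaling (0.28), quantile normalization (0.19) and median centring (0.29), and without any of the 6 mice (adjusted p = 0.0566 to 0.122). The Slc10a1 call was lost without Con mouse 1 in both comparisons (adjusted p = 0.0531 and 0.0612) and without Con-FMT mouse 1 (0.0601).

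Abcb4 was at 74.3 to 83.3 RPKM in A10-FMT and 63.4 to 115 RPKM in Con-FMT, and Abcc3 at 88.6 to 96.2 RPKM and 67.6 to 101 RPKM, all above the Con mice. Slc10a1 was at 535 to 553 RPKM in A10-FMT, a much narrower range than in STZ (450 to 720 RPKM). Slco1a1 was below all Con mice in both transplanted groups, with -0.44 (interval -2.85 to 1.96) and -0.82 (interval -3.23 to 1.58), neither of which passed. When only the compared groups were fitted, both passed (adjusted p = 0.0339 and 0.0345). Abcc4 had 0.79 in A10-FMT (adjusted p = 0.0513) and 0.52 in Con-FMT (adjusted p = 0.16). With 0.1 added in place of 1 both passed, at 1.77 (adjusted p = 0.0127) and 1.24 (adjusted p = 0.0445).

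The donor groups were compared directly as A10-FMT against Con-FMT. No member and none of the 10602 genes passed in limma (0%), and 0 members had an unadjusted p under 0.05, against 2.86% of all genes. Without Con-FMT mouse 1 no member passed either. Changes ran from -0.27 for Abcb11 (interval -0.59 to 0.058) to 0.38 for Slco1a1 (interval -2.03 to 2.79). Abcb11 was the only member whose mice did not overlap between these groups, at 77.8 to 97.6 RPKM in A10-FMT and 99.3 to 107 RPKM in Con-FMT. Of all genes 8.92% did not overlap, so that 1 of 10 members is near that share. A difference of the size of the STZ effect on Abcb4 or Abcc3 lies outside the intervals of these genes (-0.48 to 0.25 and -0.27 to 0.70), while for Slco1a1 and Slco1a4 (-0.84 to 1.08) the intervals were wider.

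Ordered by group mean, 6 members (Slco1a4, Abcb11, Abcb4, Abcc2, Abcc3 and Abcc4) had Con lowest and STZ and STZ+AOS highest. How common this order was among all genes was not counted. Of all genes 33% were called higher in STZ against Con and 31.8% in STZ+AOS against AOS. Abcb4 rose in the order Con (34.6 RPKM), AOS (47.5), A10-FMT (77.4), Con-FMT (86.5), STZ (102) and STZ+AOS (110), and the ranges of mice overlapped between neighbours from A10-FMT upward. Abcc3 had the order Con (31.6), AOS (44.6), Con-FMT (81.2), A10-FMT (93.3), STZ (104) and STZ+AOS (114), where AOS and Con-FMT were the only neighbours whose mice did not overlap. For Abcc4 the order was Con (0.29), AOS (0.303), Con-FMT (0.893), A10-FMT (1.24), STZ (4.01) and STZ+AOS (4.96). Its mice separated into 3 levels, namely Con with AOS, the transplanted groups, and STZ with STZ+AOS. Slco1b2 had means of 191 to 232 RPKM, and no neighbours in its order were apart.

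Over the 18 libraries, the genes most like each member in log2(RPKM + 1) were found among all tested genes, as a description of values that share the same groups and libraries. Slco1a1 was most like Car3 (r = 0.984), a muscle and liver carbonic anhydrase, and Mup3 (r = 0.969), a major urinary protein. Slco1a4 was most like Pck1 (r = 0.985), the gluconeogenic enzyme PEPCK, and Cyp2c37 (r = 0.984). Abcb4 was nearest to Cyp4a14 (r = 0.978), a fatty acid hydroxylase, and Abhd4 (r = 0.973), and Abcc3 to Nbr1 (r = 0.979) and Cyp2b9 (r = 0.969). For Slc10a1 the nearest were the exporter Slc47a1 (r = 0.960) and Sqor (r = 0.954), and for Slco2b1 they were Mpst (r = 0.961) and Ido2 (r = 0.951). Abcb11 had Smurf2 (r = 0.918) and Xpot (r = 0.916), Abcc2 had Kif1b (r = 0.965) and Arih2 (r = 0.962), and Abcc4 had Nedd4 and Arid2 (both r = 0.972). Slco1b2, which varied least, had no gene above r = 0.789 (Vasn).

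Because Slco1a1 and Slco1a4 are known for opposite sex bias, genes of both kinds were read in the same male mice. Of 11 tested male-biased genes 9 were lower and 0 higher in STZ against Con (median -3.11), and of 11 tested female-biased genes 10 were higher and 0 lower (median 4.52), against a median of 0.21 over all genes, of which 5.52% were lower and 33% higher (13.1% and 14% with median-ratio scaling). Both counts were the same without STZ mouse 3, with medians of -4.09 and 5.50, where 7.58% of all genes were lower and 39.8% higher. Among the male-biased genes Mup7, a major urinary protein, had a change of -7.41 (adjusted p = 0.0176), Mup20 of -6.98 (0.00214), the fatty acid elongase Elovl3 of -6.48 (0.00084) and the steroid enzyme Hsd3b5 of -6.31 (0.00256). Among the female-biased genes the sulfotransferase Sult2a1 rose by 7.33 (adjusted p = 0.00474), Cyp2a4 by 6.55 (0.000546) and Cyp2b9 by 5.71 (0.000547). In STZ+AOS against AOS 10 of 11 male-biased genes were lower and 11 of 13 female-biased genes higher, against 6.11% and 31.8% of all genes. Both counts held without STZ+AOS mouse 3 (5.06% and 27% of all genes). The filter on low values limits the female-biased counts, since the whole list summed to 2.34 to 16.6 RPKM in Con. Acot3, at 0.09 to 0.45 RPKM in Con, entered the fits only through groups in which it was higher. Such genes could hardly be called lower, and how many entered in this way was not counted.

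The sums of these lists also set STZ mouse 3 apart. The 12 male-biased genes summed to 209 and 538 RPKM in STZ mice 1 and 2 and to 10673 RPKM in STZ mouse 3, against 24023 to 43999 RPKM in Con. The female-biased sum was 3958, 1387 and 494 RPKM in STZ mice 1 to 3 and 2.34 to 16.6 RPKM in Con. In the transplanted groups the male-biased sum was 2884 to 4789 RPKM in A10-FMT and 693 to 6270 RPKM in Con-FMT, still below all Con mice, with 693 RPKM in the Con-FMT mouse that also had the lowest Slco1a1 of its group. With all mice no gene of these lists passed in either transplant comparison against STZ. When STZ mouse 3 was left out, 6 male-biased genes were higher in each, and the lower female-biased genes numbered 5 for A10-FMT and 8 for Con-FMT. Of all genes 3.78% and 5.62% were then higher and 8.91% and 9.84% lower, for A10-FMT and Con-FMT in turn. The part of a shared sex-biased programme in the change of any transporter was not tested.

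**Figure D5:**
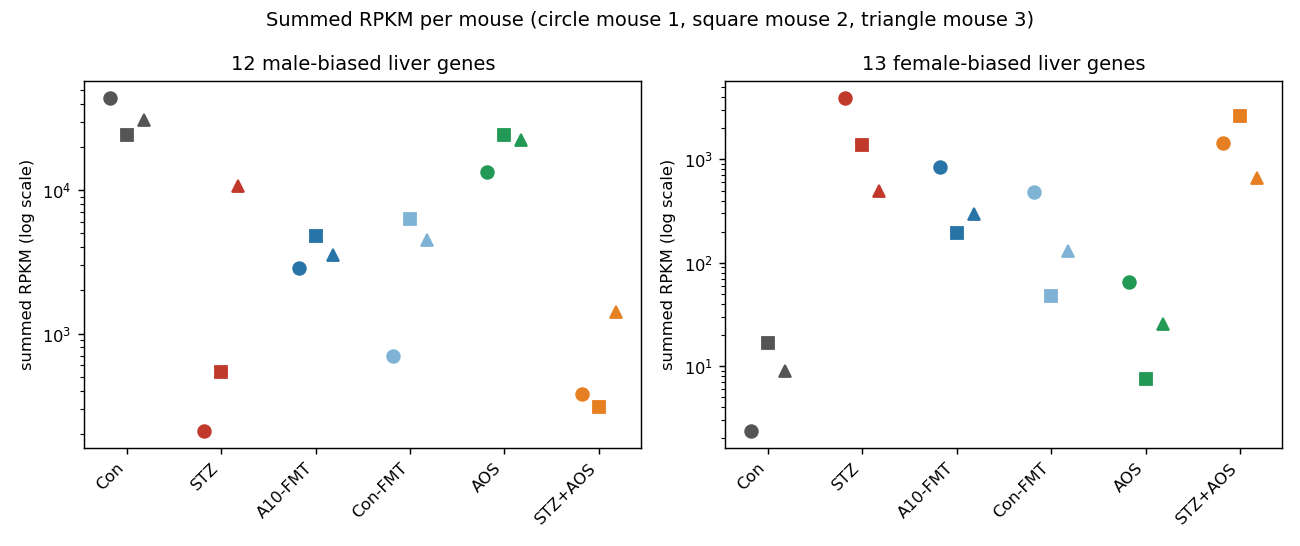
Summed RPKM (log axis) of 12 male-biased (left) and 13 female-biased (right) liver genes in each of the 18 mice, by group; circles, squares and triangles are mice 1, 2 and 3. STZ mouse 3 has the highest male-biased sum (10673 RPKM) and the lowest female-biased sum (494 RPKM) of the STZ group.

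Other uptake genes were read from a list of 14, of which 10 were tested. In STZ against Con 6 were higher and 1 lower, with a median of 0.60, against 33% of all genes higher and 5.52% lower (14% and 13.1% with median-ratio scaling). These shares of all genes hold for the lists that follow. The counts were again 6 and 1 without STZ mouse 3. In that setting 39.8% of all genes were higher and 7.58% lower, here and for the lists that follow. Slc22a7 (OAT2), an organic anion carrier, fell by 2.20 (adjusted p = 0.00206), from 46.1 ± 7.58 to 10.6 ± 6.76 RPKM (SD, n = 3), and Slc27a2, a fatty acid and bile acid CoA ligase, rose by 1.20 (0.000751), from 244 ± 6.53 to 569 ± 96.7 RPKM. The carnitine carrier Slc22a5 rose by 1.19 (0.00172) and the folate carrier Slc19a1 by 1.15 (0.00209). In STZ+AOS against AOS Slc22a7 fell by 2.20 (0.000435), and 5 genes of the list were higher and 1 lower, against 31.8% and 6.11% of all genes.

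Among 9 tested genes of canalicular and lipid export, 5 were higher and 2 lower in STZ against Con (median 0.41), with or without STZ mouse 3. The sterol pump is formed by Abcg5 and Abcg8, and both rose, by 1.75 (adjusted p = 0.000328) and 1.49 (0.000675). Abcg5 had 17.7, 14.7 and 16.6 RPKM in Con and 79.5, 53.8 and 43.2 RPKM in STZ. Abcb1a, a multidrug exporter, rose by 1.46 (0.000625), and the cation exporter Slc47a1 by 0.93 (0.00214). Like Abcc4, Abcb1a entered the fits only through groups in which it was higher, at 0.27 to 0.35 RPKM in Con and 0.32 to 0.58 RPKM in AOS. Abcg2 (BCRP), an exporter of sulfate conjugates, fell by 0.77 (adjusted p = 0.035), against the direction of the canalicular members. In STZ+AOS against AOS 3 of these genes were higher and 2 lower, against 31.8% and 6.11% of all genes. Abcg2 was among the lower ones (-0.81, adjusted p = 0.0137).

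Of 4 tested genes of other ABCC pumps and of the bile acid exporter OST, 3 were higher in STZ against Con and 0 lower (median 0.66), with or without STZ mouse 3. Slc51b, the beta subunit of OST, rose by 1.13 (adjusted p = 0.0229), from 1.72 ± 0.9 to 5 ± 2.11 RPKM (SD, n = 3), Abcc10 by 0.75 (0.00662) and Abcc9 by 0.56 (0.0161). The same list had 1 of 5 higher and 0 lower in STZ+AOS against AOS (median 0.22), namely Abcc9 at 0.80 (adjusted p = 0.00114), and 2 were higher without STZ+AOS mouse 3. Of all genes 31.8% were higher and 6.11% lower in this comparison, and 27% and 5.06% without that mouse. Of 11 tested trafficking and scaffold genes, which place transporters in the membrane, 1 was higher and 0 lower in STZ against Con, a share below that of all genes. This was Rdx (radixin, which anchors MRP2) at 0.39 (adjusted p = 0.00659), and the median was 0.18, against 0.21 over all genes. Leaving out STZ mouse 3 gave 3 higher and 1 lower. With STZ+AOS against AOS 0 were higher and 2 lower (median 0.16), Pdzk1, a scaffold of apical transporters, at -0.45 (adjusted p = 0.0324) and Tmem30a, a flippase subunit, at -0.43 (adjusted p = 0.00857), and without STZ+AOS mouse 3 there was 1 in each direction. The shares of all genes are those just given for this comparison.

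Among 17 regulators known to control transporter genes 9 were higher and 0 lower in STZ against Con (median 0.41), against 33% of all genes higher, and the same counts were found without STZ mouse 3. The bile acid receptor Nr1h4 (FXR) had 54.4, 65.5 and 58.6 RPKM in Con and 80.5, 70.7 and 59.9 RPKM in STZ, a value of 0.23 (adjusted p = 0.22). Its target Nr0b2 (SHP), a repressor of bile acid synthesis, had 0.40 (adjusted p = 0.299), and Ppara, the receptor for fatty acids, 0.34 (adjusted p = 0.265). Receptors for foreign compounds passed. Nr1i2 (PXR) rose by 0.92 (adjusted p = 0.002), and Nr1i3 (CAR) had 32.3, 61.1 and 47.3 RPKM in Con and 209, 129 and 78.9 RPKM in STZ and rose by 1.48 (adjusted p = 0.00465). Klb, the coreceptor through which FGF15 represses bile acid synthesis, rose by 1.66 (0.00047), Hnf4a by 0.75 (0.00102) and the bile acid synthesis regulator Nr5a2 by 0.75 (0.000859).

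In STZ+AOS against AOS 8 of the 17 regulators were higher and 0 lower, against 31.8% of all genes higher. Nr1h4 passed there (0.45, adjusted p = 0.0121), whereas Nr1i2 (0.37, adjusted p = 0.133) and Nr1i3 (0.66, adjusted p = 0.12) did not. Nr0b2 had -0.63 (adjusted p = 0.0943), and Ppara -0.0077 (adjusted p = 0.981). No difference between these comparisons passed an interaction test.

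Nfe2l2 (NRF2), which controls antioxidant genes and several MRP pumps, had 23.3, 25.9 and 24.8 RPKM in Con and 43.8, 38.9 and 45.8 RPKM in STZ, and rose by 0.77 (adjusted p = 0.000831). In STZ+AOS against AOS it rose by 0.58 (adjusted p = 0.0063). Of 9 tested NRF2 target genes 6 were higher and 0 lower in STZ against Con (median 0.53), with or without STZ mouse 3, against 33% of all genes higher (14% with median-ratio scaling). Nqo1, the quinone reductase, had 0.94, 1.71 and 1.48 RPKM in Con and 13.3, 13.7 and 7.37 RPKM in STZ and rose by 2.36 (adjusted p = 0.000527), the epoxide hydrolase Ephx1 by 1.20 (0.000567), Srxn1 by 1.00 (0.00105) and Txnrd1 by 0.78 (0.00121). Gclc had -0.0095 (adjusted p = 0.976), and the heme oxygenase Hmox1 0.53 (adjusted p = 0.25). With all mice, 0 genes from the lists of regulators and of NRF2 targets passed in A10-FMT or Con-FMT against STZ or in AOS against Con. Leaving out STZ mouse 3, the lower regulators numbered 2 for A10-FMT and 3 for Con-FMT, with 1 lower NRF2 target for each. Of all genes 8.91% and 9.84% were lower in that setting.

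Markers of other liver cells were read beside these results. Summed Kupffer cell markers were 81.2 to 122 RPKM in Con and 123 to 256 RPKM in STZ, and 2 of 8, Marco (2.79, adjusted p = 0.00936) and Timd4 (0.79, adjusted p = 0.0402), were higher, a share below the 33% of all genes. When STZ mouse 3 was left out, 4 of 8 were higher, against 39.8% of all genes. Of 5 tested cholangiocyte markers 0 were higher and 2 lower, Sox9 (-0.73, adjusted p = 0.00826) and the ileal-type bile acid carrier Slc10a2 (-2.35, adjusted p = 0.00167), and their summed level was 37.9 to 57.1 RPKM in Con and 30.3 to 49.8 RPKM in STZ. Among 10 hepatocyte markers 4 were higher and 3 lower, against 33% and 5.52% of all genes (14% and 13.1% with median-ratio scaling). Of the sinusoidal endothelial markers 2 of 8 were higher, of the stellate cell and fibroblast markers 1 of 8, and of the erythroid markers 1 of 4 was lower, while no marker of exocrine pancreas or kidney passed the filter on low values. The part of these cells in the changes of the transporters was not tested.

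Sequence shared with other genes limits how far the reads of some members can be told apart. Of all stretches of 35 bases in the longest transcript, 4.19% for Slco1a1 (mostly with Slco1a4), 6.47% for Slco1a4 (mostly with Slco1a5), 5.02% for Abcb4 (mostly with Abcb1a) and 0.525% for Abcc2 also occurred in another gene, and 0 for the other 6 members.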

How the data were processed

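Liver RNA of 3 mice per group was sequenced by the authors, and 1 value per gene and library was deposited. Per the study's methods, the authors divided the reads of each gene by transcript length and by mapped reads and deposited the resulting RPKM values. The methods name SOAPaligner, and the submitters' processing notes name Bowtie 0.12.2 and the mm10 build. A gene entered a fit when 3 or more of its libraries reached 1 RPKM, and log2(RPKM + 1) was fitted with limma 3.58.1 in R 4.3.3 (with trend, two-sided). The 4 groups of the study formed 1 fit (12 libraries, 10602 genes). Comparisons with AOS or STZ+AOS came from a fit of all 6 groups (18 libraries, 10822 genes). The Benjamini-Hochberg adjustment covered every gene tested in a comparison, and a gene passed at an adjusted p under 0.05. Intervals are 95% intervals of the fit. The labels do not say that mice of a group were kept apart, so the p-values measure only the spread between these samples.

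Members and gene lists were chosen with earlier results of these data known. Named genes were the 10 members, the 2 genes most like each by Pearson r, at most 4 called genes a list by size of the STZ change, and 6 regulators (Nr1h4, Nr0b2, Nr1i2, Nr1i3, Ppara, Nfe2l2). Further genes of these lists were named after their values were seen. In the text 1 gene that this rule would name is left out. In simulated data laid out as STZ against Con, 194 of 200 genes changed by 1.5 (log2) among 10408 were recovered, with 10 false calls. The simulated noise was independent, with the same spread in all groups and no mouse set apart. Genes as low as Abcc4 in Con were not among those changed. The simulation therefore does not give the power for the members. Read depth is not part of RPKM. Steps between low values put 1 read in a transcript of 1 kb at about 0.07 RPKM, from a weak signal. Alternatives were 3 other scalings, an added 0.1, other filters, no trend, other groups in the fit, a replicate block, stricter thresholds and leaving out each mouse. Gene list counts without STZ mouse 3 or STZ+AOS mouse 3 were added after the data were seen. Read counts were not used here, and count tests were not run.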

Additional observations from a re-analysis of the deposited data

How the results depend on the processing

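The number of transporters called in STZ against Con (9) was 5 at the stricter limits (FDR of 0.001 or less and a log2 change of 1 or more), where A10-FMT against Con and Con-FMT against Con gave 0 each and STZ+AOS against AOS gave 4, and the latter gave 5 at an adjusted p under 0.01. The shares of all genes at these stricter thresholds were not counted. A10-FMT against Con gave 8 when only these groups were fitted, against 32.8% of all genes. A10-FMT against STZ gave 1 with all 6 groups fitted (0.49% of all genes) and 0 to 4 without 1 mouse (0% to 12.7%). Con-FMT against STZ gave 1 with median-ratio scaling, quantile normalization, median centring or all 6 groups fitted. Of all genes 0.689%, 0.707%, 0.887% and 0.166% passed in these settings in turn. Without 1 mouse it gave 0 to 3, against 0% to 15.5% of all genes. Every other count of called transporters was within 1.5 times the value reported. Whether the mouse numbers pair the groups was not settled. In their deviations from group means, 16 of 45 same-numbered pairs correlated above 0.1. The median r was 0.032, against -0.013 for other-numbered pairs. With the replicate block 8 transporters were called in STZ against Con (35% of all genes) and 5 in Con-FMT against Con (13.7%), with the other counts as reported. The block ended the calls of Slco2b1 in STZ against Con (adjusted p = 0.074) and of Abcb11 in Con-FMT against Con (adjusted p = 0.0637).

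Over all genes, STZ against Con called 4087 genes as deposited, 2651 with only these groups fitted and 2562 to 5012 without 1 mouse. STZ+AOS against AOS called 4102 genes, and 2648 with median-ratio scaling, 2703 with median centring and 2483 with only these groups. A10-FMT against Con called 1953 genes, and 1155, 1107 and 1171 with median-ratio scaling, quantile normalization and median centring, 3355 with only these groups and 547 to 1468 without 1 mouse. Con-FMT against Con called 2059 genes, and 866, 845 and 888 with these scalings and 603 to 2096 without 1 mouse. In A10-FMT against STZ (24 genes) counts ran from 0 to 1343 and in Con-FMT against STZ (1 gene) from 0 to 1636 without 1 mouse.

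Signs turned only for values that did not pass. With median-ratio scaling, quantile normalization and median centring in turn, Slco2b1 had -0.19, -0.24 and -0.17 in A10-FMT against Con and -0.20, -0.22 and -0.19 in Con-FMT against Con, Slc10a1 had -0.007, -0.024 and -0.013 in STZ+AOS against AOS, and Abcc4 had -0.003, -0.0055 and -0.045 in AOS against Con. With median-ratio scaling and median centring, Slco1b2 had -0.028 and -0.0029 in STZ against Con and 0.029 and 0.018 in Con-FMT against STZ. With quantile normalization Abcb11 had -0.078 in A10-FMT against Con and Slco1b2 had -0.02 in Con-FMT against Con. Without 1 mouse, Slc10a1 ran from -0.25 to 0.093 in A10-FMT against STZ, from -0.29 to 0.048 in Con-FMT against STZ and from -0.023 to 0.47 in STZ+AOS against AOS. Slco1b2 ran from -0.12 to 0.12 in A10-FMT against STZ and from -0.17 to 0.07 in Con-FMT against STZ, and Slco2b1 from -0.082 to 0.073 in A10-FMT against Con and from -0.066 to 0.089 in Con-FMT against Con. Abcc4 ran from -0.023 to 0.055 in AOS against Con and from -0.058 to 0.46 in the interaction, and Slco1a1 from -0.57 to 2.42 in STZ+AOS against STZ. The cause of these differences was not tested. Abcc4, at 0.24 to 0.32 RPKM in Con, rests on few reads, and the highest and lowest mouse of Slco1a1 differed 138 times in STZ and 40.9 times in STZ+AOS.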
